A study of Mus musculus with 18 samples.

Results

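Gene and repeat RNA was compared between Daxx-null and wild-type mouse embryonic stem cells after retinoic acid, using the 6 libraries labelled for that treatment out of 18 libraries in all. The 3 Daxx-null libraries came from an E14Tg2a line labelled as a Daxx knockout, and the 3 wild-type libraries from the parental E14Tg2a line, a male embryonic stem cell line. Both lines were held in serum with LIF, the cytokine that keeps embryonic stem cells undifferentiated, at 1000 units/mL. They were then kept for 24 h without LIF and for a further 4 days without LIF in 10 µM retinoic acid, which the labels call neuronal differentiation. RNA was extracted with DNase I treatment, enriched on oligo(dT) beads and depleted of ribosomal RNA. The design text calls the 3 replicates of each culture independent. Neither the deleted part of Daxx nor the number of clones behind the null line is stated, and the genotypes also differ by whatever else separates the lines. The same lines in serum and LIF, 3 libraries per genotype, served for a comparison of effects where stated.

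DAXX is a histone chaperone that, together with the chromatin remodeller ATRX, deposits the histone variant H3.3 at heterochromatin, including telomeres, pericentromeric satellites and endogenous retroviruses. It is also a SUMO-binding protein of PML nuclear bodies. Retinoic acid acts through nuclear receptors that bind paired response elements, switches on Hox genes and its own degrading enzymes, and drives embryonic stem cells out of pluripotency towards neural and, in part, endodermal fates.

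Over genes, the libraries held 115 to 139 M counting units in the Daxx-null group, against 116 to 142 M in the wild-type group, as recovered from the whole-number steps of the deposited values. FPKM is the number of fragments per length of exon and per depth of the library, here on the scale of the deposited files, which by inference is about 10 times the conventional one. A gene was called where limma, with Benjamini-Hochberg adjustment over 15696 tested genes, gave an adjusted p under 0.05. Daxx-null cells had 94 genes called higher and 355 called lower, which is 0.599% and 2.26% of the genes tested. Without adjustment, a p under 0.05 was found for 1173 genes higher and 2115 lower. At least 2-fold differences were called for 5 genes higher and 238 lower, or 0.0319% and 1.52% of the genes tested. The median log2 fold change of all tested genes was -0.04. The genes that fell were expressed at a low level, with a median of 17.2 FPKM in wild-type cells, while those that rose had a median of 145 FPKM and all tested genes 56.8 FPKM.

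Marker levels were used to check the label. Pou5f1, which encodes the pluripotency factor OCT4, averaged 3.29 FPKM in Daxx-null and 35.4 FPKM in wild-type cells after retinoic acid, against 9909 and 8019 FPKM in serum. Cyp26a1, the retinoic acid hydroxylase, averaged 923 FPKM in Daxx-null and 1496 FPKM in wild-type cells, against 1.42 and 2.53 FPKM in serum. The neural progenitor gene Pax6 averaged 219 FPKM in Daxx-null and 196 FPKM in wild-type cells. Neuronal markers were mixed. Stmn2, a neuronal microtubule regulator, was lower after retinoic acid than in serum in both genotypes, at 60.2 FPKM in Daxx-null and 50.5 FPKM in wild-type cells against 981 and 1019 FPKM. Dcx was higher in both, at 21.5 and 20.4 FPKM against 0.04 and 0.008 FPKM in serum. Tubb3 and Elavl3 were higher than in serum in Daxx-null cells (460 against 406 and 59.6 against 40.1 FPKM). In wild-type cells they were lower (298 against 449 and 42.4 against 58.5 FPKM). Markers of other cells were present too: the endoderm factor Gata6 averaged 141 FPKM in Daxx-null and 211 FPKM in wild-type cells. The mesoderm factors T and Mesp1 stayed under 3 FPKM in every library after retinoic acid. A further mesoderm factor, Tbx6, averaged 2.76 FPKM in Daxx-null and 4.87 FPKM in wild-type cells.

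Wild-type replicate 3 stood apart from the other wild-type libraries. Its summed FPKM over the primitive and visceral endoderm list was 12101, against 7510 and 7304 in wild-type replicates 1 and 2. Its Pou5f1 was 73.9 FPKM, against 13.8 and 18.6 FPKM in those libraries. Without this library 37 genes were higher and 187 lower, of which 30 and 164 were among the genes called with it. For 20 of the 355 genes that fell it held more than 2 times the FPKM of both other wild-type libraries. Leaving out Daxx-null replicate 2 gave 5 genes higher and 105 lower, leaving out wild-type replicate 1 gave 11 and 102, and leaving out Daxx-null replicate 3 gave 186 and 400, so the number of calls depended on which library was left out.

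Daxx itself (chromosome 17, 34046390 to 34052535, mm9) had 62.7, 61.7 and 60.8 FPKM in the Daxx-null libraries, against 238, 242 and 265 FPKM in the wild-type libraries. The groups did not overlap, and the Daxx-null mean was 0.249 times that of wild type (log2 fold change -2.0, SE 0.07, adjusted p = 2.2e-05 by limma). RNA from the gene was still counted in cells labelled knockout, over an annotation that does not separate the deleted part. Its partners were not called: Atrx had a log2 fold change of -0.09 (SE 0.10) and the H3.3 genes H3f3a and H3f3b of 0.28 (SE 0.12) and -0.08 (SE 0.08). Of the 18 tested genes for H3.3 chaperones and related factors only Daxx was called.

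Among the largest falls were those of imprinted genes, which are transcribed from the copy of a single parent. H19, a maternally expressed noncoding RNA (chromosome 7, 149761435 to 149764051, mm9), had 14.9, 43.4 and 38.4 FPKM in Daxx-null libraries, against 5690, 6619 and 8122 FPKM in wild-type libraries. Grb10, an adaptor that restrains growth factor signalling (chromosome 11, 11830502 to 11927974, mm9), had 5.71, 5.18 and 4.04 FPKM in Daxx-null libraries, against 697, 596 and 749 FPKM in wild-type libraries. Nnat, which encodes the membrane proteolipid neuronatin and is expressed from the paternal copy (chromosome 2, 157385814 to 157388261, mm9), had 9.10, 16.2 and 9.05 FPKM in Daxx-null libraries, against 1000, 996 and 1054 FPKM in wild-type libraries. All 3 genes were thus among the well-expressed genes of wild-type cells and low in every Daxx-null library, with log2 fold changes of -7.82 (SE 0.37), -6.97 (SE 0.14) and -6.46 (SE 0.21) and adjusted p by limma of 0.00011, 1.6e-06 and 2.0e-05.

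These falls were not shared by most of the tested imprinted genes. Over all tested genes 2.26% fell and 0.599% rose. Of 25 tested maternally expressed genes 4 fell and 0 rose, with a list median of -0.03, against -0.04 for all genes. Beside H19 and Grb10 these were Asb4, which had 9.24, 8.17 and 10.5 FPKM in Daxx-null libraries and 35, 32.0 and 22 FPKM in wild-type libraries, and Phlda2, a placental growth restrainer with a log2 fold change of -0.93 (SE 0.14). The reciprocal partner of H19, the growth factor gene Igf2, had 5285, 6595 and 9968 FPKM in Daxx-null libraries and 10010, 10620 and 6661 FPKM in wild-type libraries. Those groups overlapped (log2 fold change -0.34, SE 0.26, adjusted p = 0.50 by limma). Of 32 tested genes listed as paternally expressed 7 fell and 1 rose, with a list median of -0.11. The falls included Nnat, Sfmbt2 (log2 fold change -1.51, SE 0.26), Zrsr1 (-0.90, SE 0.08) and Peg3 (-0.53, SE 0.09). Zim3 (-0.85, SE 0.16) was also counted in this list, and which parental copy was transcribed was not tested. Magel2, a ubiquitin ligase regulator of the Prader-Willi region, rose, with 23.5, 26.0 and 19 FPKM in Daxx-null and 10.7, 11.4 and 9.72 FPKM in wild-type libraries (log2 fold change 1.07, SE 0.15). The counts without wild-type replicate 3 were 4 maternally expressed genes lower, and 3 paternally expressed genes lower and 1 higher. With any library left out the paternal count lay between 2 and 4.

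**Figure D1:**
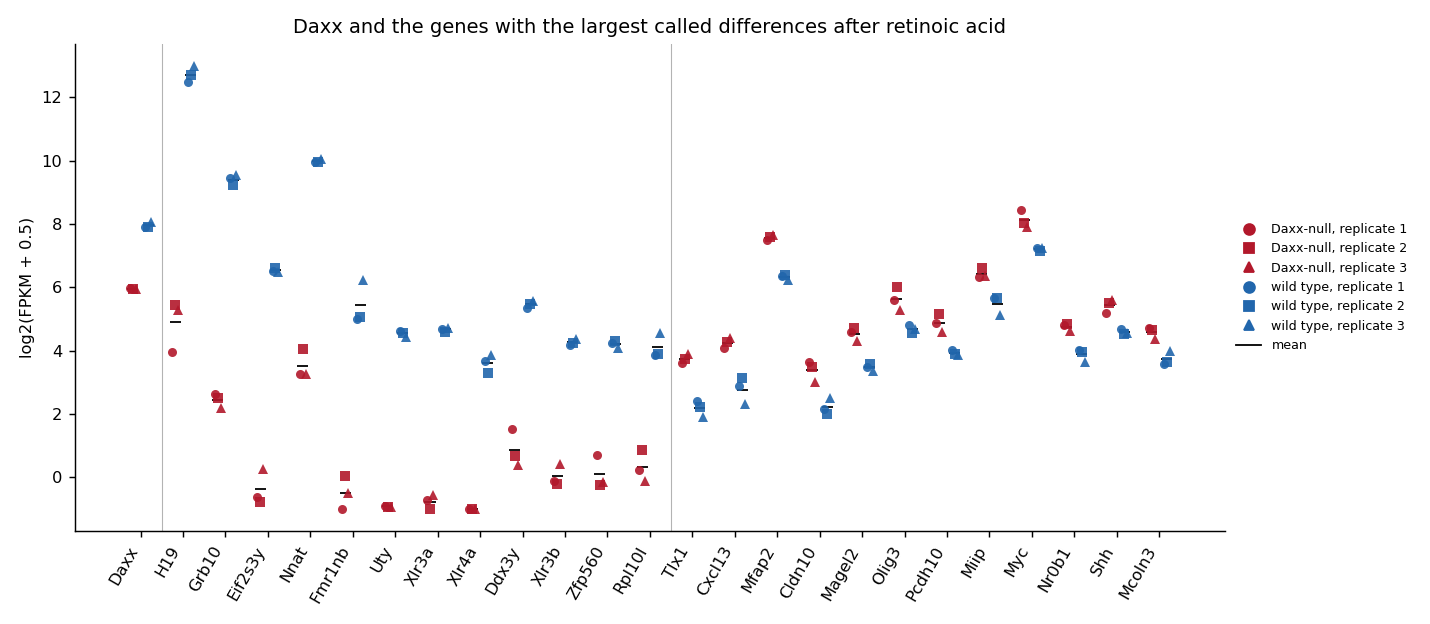
FPKM on a log2 scale, with 0.5 added, of Daxx, the 12 named genes that fell most and the 12 that rose most, with a point per library and a bar at the group mean. For each gene the 3 Daxx-null libraries, drawn left, lie entirely below or above the 3 wild-type libraries. For all genes but Daxx the rule that named them required this.

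Genes of the Y chromosome were near 0 in Daxx-null cells. Eif2s3y, a translation factor gene, had 0.15, 0.08 and 0.70 FPKM in Daxx-null libraries, against 91.0, 98.0 and 90.0 FPKM in wild-type libraries. Uty, a histone demethylase homologue, had 0.03 FPKM in each Daxx-null library, against 24.0, 23.3 and 21.3 FPKM in wild-type libraries. Ddx3y, an RNA helicase gene, had 2.40, 1.09 and 0.81 FPKM in Daxx-null libraries, against 40.5, 43.8 and 46.9 FPKM in wild-type libraries. Of 8 listed Y-linked genes found in the files 4 passed the filter on low values. All 4 fell (3 without wild-type replicate 3), and the list had 4 called lower in serum. Members near 0 in Daxx-null cells passed through their wild-type level alone, so the count describes these members only. Whether the null line retained the Y chromosome was not tested, and this difference between the lines and the Daxx genotype cannot be told apart.

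Some X-linked genes of the germ cell and placenta clusters also fell. Of 41 listed members found in the files 15 passed the filter on low values, and of these 12 fell and 0 rose, with a list median of -2.29. Members near 0 in Daxx-null cells passed through their wild-type level alone, so the count and median describe these members and not the clusters. Xlr3a and Xlr3b belong to a family of near-identical copies, and how reads were divided between them is uncertain. Xlr3a had 0.11, 0 and 0.18 FPKM in Daxx-null libraries and 25.4, 23.7 and 26.0 FPKM in wild-type libraries, and Xlr3b had 0.43, 0.37 and 0.85 against 17.8, 18.5 and 20.3 FPKM. Xlr4a was at 0 in all Daxx-null libraries, against 12.3, 9.27 and 14.0 FPKM in wild-type libraries. That is at least 179-fold lower, taking 3 counting units over the Daxx-null group as the floor. Fmr1nb, next to the fragile X gene and normally expressed in testis, had 0, 0.52 and 0.20 FPKM in Daxx-null libraries, against 31.3, 33.3 and 73.9 FPKM in wild-type libraries. The wild-type value of Fmr1nb was highest in replicate 3, but all 3 wild-type libraries lay far above the Daxx-null libraries. The placental homeobox genes Rhox6 and Rhox9 fell as well (log2 fold changes -1.74, SE 0.26, and -2.10, SE 0.28). In this list 3 members had no counting unit in any Daxx-null library, and with them at their bound the median was -2.33. Without wild-type replicate 3 the count was 10. Over the whole X chromosome 29 of 559 tested genes fell (5.19%) and 3 rose (0.537%), against 2.26% and 0.599% of all genes tested.

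Germline genes outside those clusters fell in part. Of 54 members of the germline list found in the files 36 were tested. Of these 13 fell and 0 rose, against 2.26% and 0.599% of all genes tested, with a list median of -0.75. Low members here, too, could pass the filter through wild type alone. Rpl10l, an autosomal ribosomal protein gene that acts in male meiosis, had 0.68, 1.31 and 0.42 FPKM in Daxx-null libraries, against 14.2, 14.4 and 23.1 FPKM in wild-type libraries. The testis tubulin gene Tuba3a had 1.73, 0.44 and 1.44 FPKM in Daxx-null libraries, against 19, 16.0 and 16.4 FPKM in wild-type libraries. Stag3, the meiotic cohesin subunit, had 14.2, 14.5 and 14.1 FPKM in Daxx-null libraries, against 57.7, 53.6 and 59.6 FPKM in wild-type libraries. The groups of Stag3 were tight and far apart (log2 fold change -1.96, SE 0.09, adjusted p = 0.00012 by limma). Tex19.1 and Sohlh2, a retrotransposon restraint factor and a spermatogonial transcription factor, fell by 2.71 (SE 0.28) and 2.55 (SE 0.31) on the log2 scale. The helicase Ddx4 and the piRNA factor Mael fell by 1.00 (SE 0.16) and 1.31 (SE 0.24). The synaptonemal complex genes Sycp1 and Sycp3 were not called (log2 fold changes -0.33, SE 0.20, and -0.58, SE 0.22), nor was the meiotic methyltransferase Prdm9 (-0.27, SE 0.16). The count was 5 without wild-type replicate 3, 5 without Daxx-null replicate 2, 5 without wild-type replicate 1 and 6 without wild-type replicate 2.

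Genes of the 2-cell-like state, a rare state of embryonic stem cells that resembles the 2-cell embryo, were tested for 16 of the 25 members found in the files, with the same limit on low members. Of these 11 fell and 0 rose, against 2.26% and 0.599% of all genes tested, with a list median of -2.12. Zscan4d, which encodes a telomere-associated zinc finger protein of that state, had 2.67, 3.13 and 2.94 FPKM in Daxx-null libraries, against 20.2, 23.1 and 30.2 FPKM in wild-type libraries (log2 fold change -2.86, SE 0.18, adjusted p = 0.00041 by limma). Zscan4c, a near-identical copy, had 2.45, 0.75 and 1.21 FPKM in Daxx-null libraries, against 10.2, 8.83 and 16.3 FPKM in wild-type libraries. Of the same list, the predicted gene Gm6763 had a log2 fold change of -2.89 (SE 0.29), and the zinc finger gene Zfp560 had 1.12, 0.34 and 0.40 FPKM in Daxx-null libraries against 18.4, 19 and 16.4 FPKM in wild-type libraries. Most of these members are low even in wild-type cells, and several are copies that share reads. The well-expressed members Eif1a and Gabarapl2 were not called (log2 fold changes 0.24, SE 0.07, and -0.14, SE 0.14). In serum 3 members were called lower and 3 higher, where 29.2% of all tested genes were lower and 15% higher. The Daxx effect differed between the cultures for 13 of the 16 members, and for 21.7% of all tested genes. For Zscan4d the log2 fold change after retinoic acid was 3.75 below that in serum (difference -3.75, adjusted p = 0.0024 by limma). The count of falls was 9 without wild-type replicate 3 and 7 without wild-type replicate 1.

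Markers of primitive and visceral endoderm, the extraembryonic tissue that surrounds the early embryo, fell as 10 of 40 tested members with 0 higher. Over all tested genes 2.26% fell, and low members could pass the filter through wild type alone. The list median was -1.07, and for 30 members all Daxx-null libraries lay below all wild-type libraries, as was the case for 18% of all genes tested. Gata4, a master regulator of primitive endoderm, had 42.1, 36.2 and 48.1 FPKM in Daxx-null libraries, against 92.3, 87.3 and 128 FPKM in wild-type libraries (log2 fold change -1.26, SE 0.17, adjusted p = 0.012 by limma). Cubn, an endocytic receptor of visceral endoderm, had 7.66, 3.84 and 2.77 FPKM in Daxx-null libraries, against 25.4, 23.8 and 106 FPKM in wild-type libraries. Its partner Amn had 0.77, 0.79 and 0.60 FPKM in Daxx-null libraries, against 4.74, 4.52 and 20.7 FPKM in wild-type libraries. For both genes wild-type replicate 3 was highest by a wide margin, yet wild-type replicates 1 and 2 also lay above every Daxx-null library. The proteoglycan gene Srgn and the fetal plasma protein gene Afp fell by 3.00 (SE 0.56) and 2.18 (SE 0.25) on the log2 scale. Other well-known members missed the threshold, with log2 fold changes of -1.08 (SE 0.26) for Sox17, -0.60 (SE 0.17) for Gata6, -1.13 (SE 0.34) for Dab2 and -0.98 (SE 0.33) for the basement membrane gene Lama1. Foxa2 and Krt8, which other epithelia also express, had log2 fold changes of -0.05 (SE 0.25) and 0.02 (SE 0.26).

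The summed FPKM of the endoderm list was 5688, 4975 and 5800 in Daxx-null libraries, against 7510, 7304 and 12101 in wild-type libraries. The exact 2-sided permutation test of these sums gave p = 0.1, the smallest p that 3 against 3 libraries allow. Without wild-type replicate 3 the list had 8 members lower and a median of -0.74. Leaving out Daxx-null replicate 2 left 1 call, wild-type replicate 1 left 2, and Daxx-null replicate 1 or wild-type replicate 2 left 3. In these bulk samples fewer cells of a type and less RNA per cell cannot be told apart.

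Pluripotency genes were at low levels in both genotypes and lower in Daxx-null cells for some members, with 5 lower and 1 higher among 31 tested and a list median of -0.46. Of all tested genes 2.26% were lower and 0.599% higher. Pou5f1 had 2.84, 3.3 and 3.75 FPKM in Daxx-null libraries, against 13.8, 18.6 and 73.9 FPKM in wild-type libraries (log2 fold change -2.85, SE 0.56, adjusted p = 0.044 by limma, and 0.012 without wild-type replicate 3). Its fall was called in only 6 of 16 alternatives. Zfp42, which encodes the stem cell zinc finger REX1, had 10.3, 10.7 and 11.2 FPKM in Daxx-null libraries, against 33.9, 32.5 and 45.6 FPKM in wild-type libraries. Dppa2, an activator of the 2-cell programme, had 2.88, 1.76 and 3.39 FPKM in Daxx-null libraries, against 9.56, 10.7 and 13.9 FPKM in wild-type libraries. In all 3 genes every Daxx-null library lay below every wild-type library. Tdh and Klf2 fell by 1.35 (SE 0.19) and 1.26 (SE 0.18) on the log2 scale, whereas Nanog and Klf4 missed the threshold at -1.48 (SE 0.32) and -1.11 (SE 0.28). Nr0b1, an orphan receptor that binds OCT4, rose, with 27.6, 28.0 and 24.0 FPKM in Daxx-null and 15.8, 15.1 and 12.1 FPKM in wild-type libraries. Sox2, which neural progenitors also use, had a log2 fold change of 0.48 (SE 0.19) and was not called. Dnmt3l, the cofactor of the de novo DNA methyltransferases, followed the same order of libraries, with 1.74, 3.19 and 1.75 FPKM in Daxx-null and 14.4, 16.3 and 62.2 FPKM in wild-type libraries. The summed FPKM of the list went the other way from its median, with 4656, 4617 and 4332 in Daxx-null libraries, against 3939, 3799 and 4102 in wild-type libraries. The count of falls was 1 without wild-type replicate 2, 2 without wild-type replicate 1, 3 without Daxx-null replicate 2 and 14 with all 18 libraries in one fit. The count of rises was 2 without wild-type replicate 3, 3 without Daxx-null replicate 3 and 0 without any other library. In serum 13 of these 31 pluripotency genes were called higher and 1 lower in Daxx-null cells, against 15% and 29.2% of all genes tested there.

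**Figure D2:**
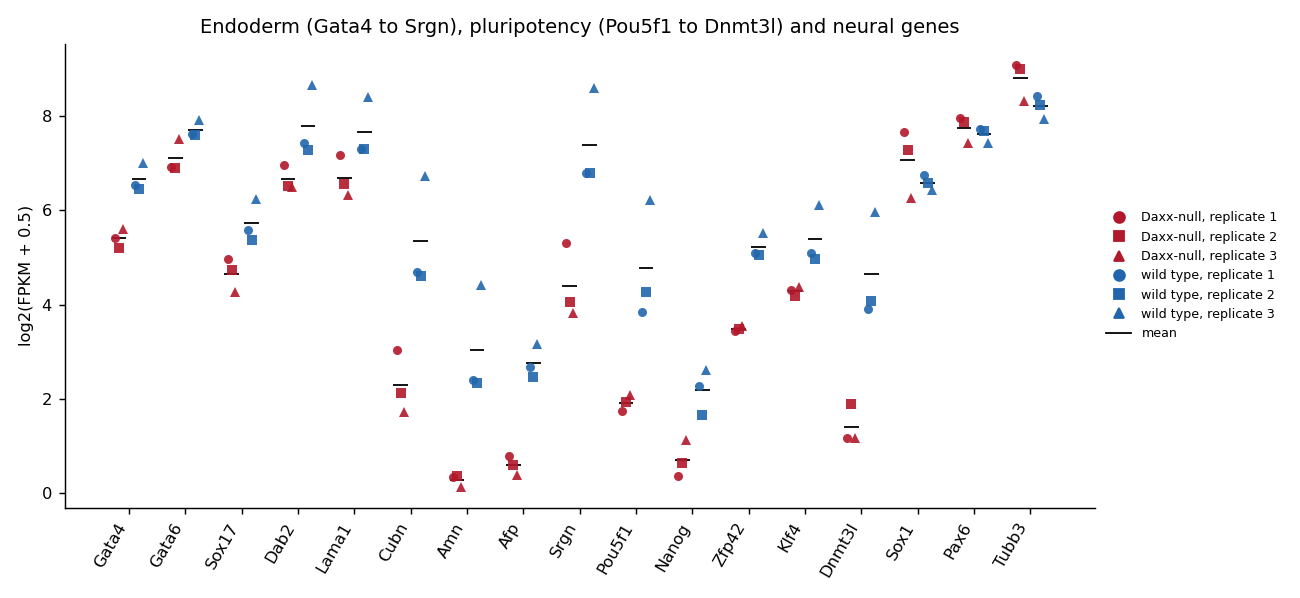
FPKM on a log2 scale, with 0.5 added, of endoderm, pluripotency and neural genes, with a point per library and a bar at the group mean. Wild-type replicate 3, the blue triangle, is the highest wild-type library from Gata4 to Dnmt3l and the lowest from Sox1 to Tubb3, and the Daxx-null libraries lie below all wild-type libraries from Gata4 to Dnmt3l.

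The retinoic acid pathway showed smaller differences. Cyp26a1 and Rarb, the gene of a retinoic acid receptor, are classical direct targets, and their promoters are shown because they hold the paired response element. The windows span 250 bases before to 50 after the start on the gene's strand (RefSeq, GRCm38.p6), at chr19:37697558-37697857 and chr14:16575427-16575726. Capitals mark a direct repeat of AGTTCA or GGTTCA with a spacer of 5 bases.
Cyp26a1: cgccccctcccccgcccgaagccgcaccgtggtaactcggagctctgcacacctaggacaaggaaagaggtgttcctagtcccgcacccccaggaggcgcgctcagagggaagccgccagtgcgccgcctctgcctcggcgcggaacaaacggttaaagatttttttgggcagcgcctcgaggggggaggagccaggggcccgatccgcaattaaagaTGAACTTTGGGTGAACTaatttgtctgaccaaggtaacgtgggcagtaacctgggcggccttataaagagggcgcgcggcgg
Rarb: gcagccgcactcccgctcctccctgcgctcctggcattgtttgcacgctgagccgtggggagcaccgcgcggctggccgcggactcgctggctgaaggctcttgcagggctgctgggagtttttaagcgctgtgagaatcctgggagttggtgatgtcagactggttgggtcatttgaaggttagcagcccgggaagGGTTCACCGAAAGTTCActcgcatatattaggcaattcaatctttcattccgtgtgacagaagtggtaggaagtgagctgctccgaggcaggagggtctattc
The repeat begins 32 bases before the start of Cyp26a1 and 53 bases before that of Rarb. Searched on both strands, it was present in 13 of 32851 promoter windows (0.0396%).

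Cyp26a1 had 858, 880 and 1031 FPKM in Daxx-null libraries, against 1353, 1360 and 1774 FPKM in wild-type libraries (log2 fold change -0.69, SE 0.13, adjusted p = 0.038 by limma). Rarb had 316, 286 and 362 FPKM in Daxx-null libraries and 405, 395 and 299 FPKM in wild-type libraries, which overlapped (log2 fold change -0.18, SE 0.14). Of 29 tested genes of retinoic acid response and metabolism 5 fell and 1 rose, against 2.26% and 0.599% of all genes tested. The list median was -0.08. Stra8, the meiotic gatekeeper named for its induction by retinoic acid, had 77.7, 75.0 and 104 FPKM in Daxx-null libraries, against 183, 208 and 256 FPKM in wild-type libraries. Stra6, the retinol uptake receptor, had 191, 198 and 209 FPKM in Daxx-null libraries, against 331, 328 and 293 FPKM in wild-type libraries. Tgm2 and Cyp26c1 fell by 1.03 (SE 0.12) and 0.57 (SE 0.11) on the log2 scale. Rdh10, which makes retinaldehyde from retinol, rose by 0.31 (SE 0.06). Cyp26a1 was called in 8 of 16 alternatives and missed the threshold without wild-type replicate 3 (log2 fold change -0.56, adjusted p = 0.059 by limma). The count of falls was 4 without wild-type replicate 3 and 3 without Daxx-null replicate 2, wild-type replicate 1 or wild-type replicate 2, and the rise of Rdh10 missed the threshold without wild-type replicate 3 (adjusted p = 0.062).

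Hox genes, which retinoic acid switches on along the body axis, gave 1 call among 32 tested, the posterior gene Hoxb13 (24.4, 18.7 and 42.4 FPKM in Daxx-null and 66.4, 66.3 and 69.5 FPKM in wild-type libraries). Its log2 fold change was -1.31 (SE 0.26), and without wild-type replicate 3 it was -1.29 and missed the threshold (adjusted p = 0.12 by limma). The list median was 0.03. The early target Hoxb1 had 116, 141 and 171 FPKM in Daxx-null libraries, against 113, 129 and 120 FPKM in wild-type libraries, with overlapping groups.

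Neural genes were called in few cases. Of 44 tested neural progenitor genes 1 fell and 0 rose, with a list median of 0.14, and of 33 tested neuronal genes 1 fell and 0 rose, with a list median of 0.19. En2, a midbrain homeobox gene, had 9.24, 8.84 and 7.0 FPKM in Daxx-null libraries, against 18.1, 17.0 and 17.7 FPKM in wild-type libraries. Lhx1, a homeobox gene of interneurons and of kidney mesoderm, had 76.4, 69.2 and 71.9 FPKM in Daxx-null libraries, against 126, 127 and 96.7 FPKM in wild-type libraries. The common neural markers Sox1 and Tubb3 were spread widely among the Daxx-null libraries. Sox1 had 202, 156 and 75.8 FPKM in Daxx-null libraries and 107, 94.9 and 86.3 FPKM in wild-type libraries, and the neuronal tubulin gene Tubb3 had 543, 515 and 320 FPKM in Daxx-null libraries and 345, 302 and 247 FPKM in wild-type libraries. Daxx-null replicate 3 was below every wild-type library for Sox1 and within their range for Tubb3. Without it, 8 neural progenitor genes were called higher and 1 lower, and without wild-type replicate 3 En2 was not called. Of 14 tested glial genes 4 fell and 0 rose, against 2.26% and 0.599% of all genes tested. The falls included Nfia, with 3.29, 3.37 and 5.00 FPKM in Daxx-null and 10.3, 10.3 and 8.14 FPKM in wild-type libraries, Nfib and Slc1a3. The glial count was 0 without Daxx-null replicate 2, wild-type replicate 1 or wild-type replicate 2, 1 without Daxx-null replicate 1 and 2 without Daxx-null replicate 3 or wild-type replicate 3.

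The genes that rose most included Olig3, Shh and Tlx1. Olig3 and Shh, a dorsal neural tube factor and the ventral floor plate signal, had 47.7, 64.1 and 38.9 FPKM and 36.3, 45.2 and 48.5 FPKM in Daxx-null libraries, against 27.4, 23.2 and 25.5 FPKM and 25, 22.6 and 22.9 FPKM in wild-type libraries. Tlx1, a hindbrain and spleen homeobox gene, had 11.6, 12.9 and 14.2 FPKM in Daxx-null libraries, against 4.88, 4.18 and 3.27 FPKM in wild-type libraries (log2 fold change 1.55, SE 0.18). The rule that named these genes by size required genotypes without overlap, and Tlx1 had the largest rise of the named genes. Msx1, a dorsal neural tube and neural crest factor, had 984, 1050 and 812 FPKM in Daxx-null libraries, against 580, 543 and 530 FPKM in wild-type libraries. Of 19 tested neural crest genes Msx1 was the only call. Outside the neural tube, Osr1, a factor of intermediate mesoderm, rose by 0.64 (SE 0.09).

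The rest of the named rises had varied functions. Mfap2, an elastic microfibril protein, had 179, 191 and 200 FPKM in Daxx-null libraries, against 81.8, 82.7 and 74.4 FPKM in wild-type libraries (log2 fold change 1.25, SE 0.08, adjusted p = 0.00029 by limma). The chemokine gene Cxcl13 had 16.4, 18.8 and 20.6 FPKM in Daxx-null libraries, against 6.84, 8.30 and 4.44 FPKM in wild-type libraries. Myc, the growth-promoting transcription factor, had 348, 262 and 238 FPKM in Daxx-null libraries, against 151, 143 and 152 FPKM in wild-type libraries. In each of these the lowest Daxx-null library was above the highest wild-type library, which the rule that named them required. Cldn10, a tight junction gene, rose by 1.16 (SE 0.23), Pcdh10, a protocadherin gene, by 0.94 (SE 0.16), Miip by 0.94 (SE 0.17) and the ion channel gene Mcoln3 by 0.85 (SE 0.16). Without wild-type replicate 3, the adjusted p was 0.063 for Cldn10, 0.11 for Olig3, 0.080 for Pcdh10, 0.062 for Myc and 0.061 for Shh.

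Some cholesterol synthesis genes rose by modest amounts. Of 23 tested members 11 rose and 0 fell, against 0.599% and 2.26% of all genes tested, with a list median of 0.41. In 17 members all Daxx-null libraries lay above all wild-type libraries, as in 11% of all genes tested. Idi1, an isomerase of isoprenoid units, had 172, 154 and 146 FPKM in Daxx-null libraries, against 104, 99.6 and 82.5 FPKM in wild-type libraries (log2 fold change 0.72, SE 0.11, adjusted p = 0.018 by limma). Msmo1, a sterol demethylase, had 768, 744 and 782 FPKM in Daxx-null libraries, against 513, 538 and 492 FPKM in wild-type libraries (log2 fold change 0.57, SE 0.06, adjusted p = 0.0052). In both genes every Daxx-null library lay above every wild-type library. Fdps and Hsd17b7 rose by 0.64 (SE 0.10) and 0.57 (SE 0.11), and the squalene epoxidase gene Sqle by 0.54 (SE 0.08). Srebf2, the transcription factor that governs the pathway, was at 0.19 (SE 0.06) and the feedback gene Insig1 at 0.09 (SE 0.08), neither of them called.

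The summed FPKM of the cholesterol list was 6324, 6474 and 6485 in Daxx-null libraries, against 4953, 5081 and 4752 in wild-type libraries, with no overlap (exact 2-sided permutation p = 0.1, the smallest possible). In serum 3 members were called higher and 12 lower, against 15% and 29.2% of all genes tested there, with a list median of -0.32. The Daxx effect differed between the cultures for 17 members, and for 21.7% of all tested genes. The count of rises was 6 without wild-type replicate 3, 1 without Daxx-null replicate 2, 2 without wild-type replicate 1 and 3 without wild-type replicate 2.

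Promoters of the members that moved are shown for Idi1 (chr13:8885356-8885655) and Msmo1 (chr8:64733529-64733828) from the cholesterol list, with CCAAT or its complement in capitals, and for Stag3 (chr5:138280259-138280558) and Mael (chr1:166238695-166238994) from the germline list, with CACGTG in capitals. Windows, strand and build are those given above.
Idi1: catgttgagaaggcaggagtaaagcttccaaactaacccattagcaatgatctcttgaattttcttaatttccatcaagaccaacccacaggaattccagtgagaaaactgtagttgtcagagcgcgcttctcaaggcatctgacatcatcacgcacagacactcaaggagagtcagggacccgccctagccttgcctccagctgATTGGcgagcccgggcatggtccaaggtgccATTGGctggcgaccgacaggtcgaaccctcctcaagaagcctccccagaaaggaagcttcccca
Msmo1: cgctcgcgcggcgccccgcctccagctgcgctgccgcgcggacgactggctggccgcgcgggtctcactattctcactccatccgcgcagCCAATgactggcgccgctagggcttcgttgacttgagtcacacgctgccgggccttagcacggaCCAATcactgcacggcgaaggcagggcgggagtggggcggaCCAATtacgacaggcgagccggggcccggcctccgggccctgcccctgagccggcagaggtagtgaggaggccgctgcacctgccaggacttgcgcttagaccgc
Stag3: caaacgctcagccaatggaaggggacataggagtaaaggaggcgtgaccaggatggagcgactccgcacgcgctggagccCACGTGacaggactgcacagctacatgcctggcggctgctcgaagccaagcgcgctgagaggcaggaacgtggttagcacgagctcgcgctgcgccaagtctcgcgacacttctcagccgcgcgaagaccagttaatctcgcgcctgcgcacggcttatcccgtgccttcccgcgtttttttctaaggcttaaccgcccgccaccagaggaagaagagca
Mael: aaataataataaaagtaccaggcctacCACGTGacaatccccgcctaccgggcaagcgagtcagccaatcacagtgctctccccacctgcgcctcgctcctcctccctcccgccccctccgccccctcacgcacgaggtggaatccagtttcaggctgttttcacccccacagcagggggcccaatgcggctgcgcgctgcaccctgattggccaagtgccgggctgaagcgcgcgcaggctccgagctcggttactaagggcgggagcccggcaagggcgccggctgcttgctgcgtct
CCAAT was found in 15 of 18 windows of tested cholesterol genes (83.3%), against 37.4% of all windows, counting both strands. The sterol element TCACNCCAC was in 0 of those 18 windows and in 1.24% of all windows. CACGTG, which reads the same on both strands, was in 16 of 42 windows of tested germline genes (38.1%) and in 7.15% of all windows. These shares cover all tested members with a window. For called members alone, CCAAT was in 6 of 8 cholesterol windows (75%) and CACGTG in 6 of 13 germline windows (46.2%). Windows were at hand for 15 of the 23 cholesterol and 32 of the 36 germline genes, and a match is a description of these letters only.

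**Figure D3:**
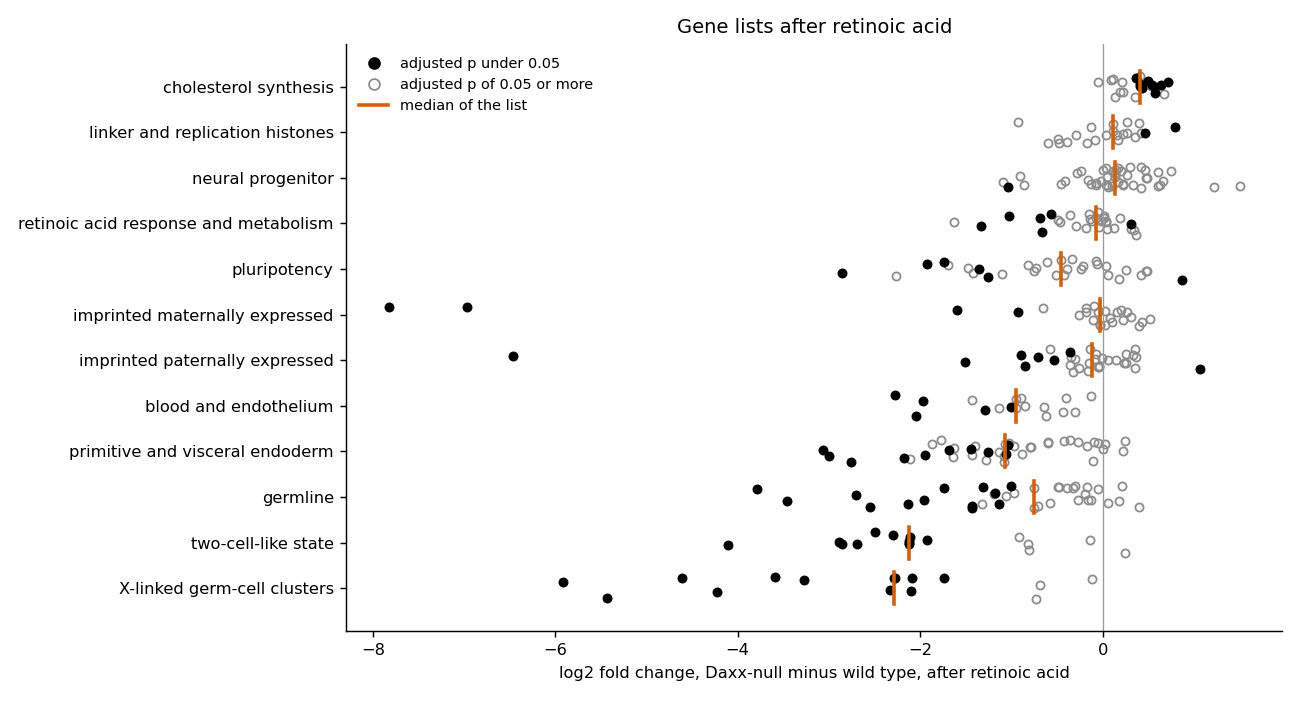
Log2 fold change (Daxx-null minus wild type) of every tested member of 12 gene lists, filled where the adjusted p was under 0.05, with an orange bar at the list median. Cholesterol genes lie right of 0 with a median of 0.41, and most members of the endoderm, germline, 2-cell-like and X-linked lists lie left of it.

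Other lists held few calls. Over all tested genes 2.26% fell and 0.599% rose, and in these lists low members could pass the filter through wild type alone. Of 26 blood and endothelial genes found in the files 17 were tested. Of these 5 fell, at levels of under 10 FPKM. Cd34 had 1.06, 1.33 and 1.64 FPKM in Daxx-null libraries and 8.61, 7.39 and 9.14 FPKM in wild-type libraries. The endothelial cadherin gene Cdh5 had 0.79, 0.80 and 0.56 against 3.87, 3.41 and 5.75 FPKM. The blood and endothelial count was 3 without wild-type replicate 3 or 2 and 1 without Daxx-null replicate 2 or wild-type replicate 1. Among 30 tested fibroblast and matrix genes 4 fell and 0 rose, including the collagen genes Col1a2 (24.1, 24.5 and 25.9 FPKM in Daxx-null and 70.0, 72.8 and 69.1 FPKM in wild-type libraries) and Col5a2 (log2 fold change -1.72, SE 0.16). Of 29 tested mesoderm genes 4 fell and 1 rose, and of 20 tested trophoblast genes 3 fell, namely the X-linked Esx1, Rhox6 and Rhox9. The mesoderm falls numbered 2 without wild-type replicate 3, 1 without wild-type replicate 2 and 0 without Daxx-null replicate 2 or wild-type replicate 1, and the trophoblast falls 2 without wild-type replicate 3 and 1 without Daxx-null replicate 2 or wild-type replicate 1. The fibroblast and matrix count stayed between 3 and 5 with any library left out. Of 31 tested interferon-stimulated genes 5 fell, among them Irf1 (33.1, 30.3 and 39.1 FPKM in Daxx-null and 54.8, 56.6 and 60.8 FPKM in wild-type libraries), and the count was 1 without wild-type replicate 3 or Daxx-null replicate 2 and 0 without Daxx-null replicate 1, wild-type replicate 1 or wild-type replicate 2. Among 22 tested histone genes 2 rose and 0 fell, with a count of 0 or 1 when any library was left out. H2afx, the variant that marks broken DNA when phosphorylated, had 3439, 3245 and 2883 FPKM in Daxx-null and 1993, 1912 and 1632 FPKM in wild-type libraries, and Hist1h2bc had a log2 fold change of 0.47 (SE 0.09, adjusted p = 0.048 by limma). No member was called in 10 further lists with 295 tested genes, among them those for PML and SUMO, centromere proteins, Wnt, Nodal and FGF signalling.

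Calls were unevenly spread over chromosomes. Of all tested genes 0.599% rose and 2.26% fell. Chromosome 1 held 29 of the 94 genes that rose, 3.33% of its 871 tested genes, and its median log2 fold change was 0.14. Rdh10, Hsd17b7 and the Polycomb gene Rnf2 were among these genes. Chromosome 11 had a median of -0.17, with 41 genes lower (3.18%) and 1 higher among 1291 tested. Chromosomes 6, 8 and 19 had medians of -0.11, -0.11 and -0.12. Relative to the wild-type mean, the median gene of chromosome 1 was shifted by 0.15, 0.16 and 0.10 in the Daxx-null libraries, and by 0.06, 0.05 and -0.10 in the wild-type libraries. Without wild-type replicate 3 the chromosome 1 median was 0.09 and 5 of its genes were called higher. The medians of chromosomes 6, 8 and 19 were then -0.05, -0.06 and -0.04, and that of chromosome 11 was -0.13. In serum the medians were 0.16 for chromosome 1 and -0.25 for chromosome 11. Subtracting each chromosome's median left 89 genes higher and 307 lower.

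The differences in serum came from other libraries of the same lines. Of the 355 genes lower after retinoic acid, 190 (53.5%) were also called lower in serum, where 29.2% of 16913 tested genes were lower, and 18 were called higher. Those 190 genes were 3.85% of the 4936 genes lower in serum. Of the 94 genes higher after retinoic acid, 40 (42.6%) were also higher in serum, where 15% of tested genes were higher, and 17 were lower. The test of the difference itself called 3669 genes, 21.7% of those tested. Among named genes, Grb10 and Nnat were lower by a further 3.3 (SE 0.27) and 2.75 (SE 0.35) on the log2 scale after retinoic acid than in serum. For the Y-linked genes Eif2s3y, Uty and Ddx3y, for Xlr3a, Xlr3b, Xlr4a and Fmr1nb and for Daxx the 2 effects were not called different. Mfap2, Cldn10, Olig3 and Mcoln3 were at log2 fold changes below 0 in serum and above 0 after retinoic acid. The serum falls of Mfap2 and Mcoln3 were called (adjusted p = 0.0265 and 0.041 by limma), and those of Cldn10 and Olig3 were not (0.11 and 0.10). Mcoln3 was low in serum, at a mean of 1.2 FPKM in Daxx-null and 2.3 FPKM in wild-type libraries.

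**Figure D4:**
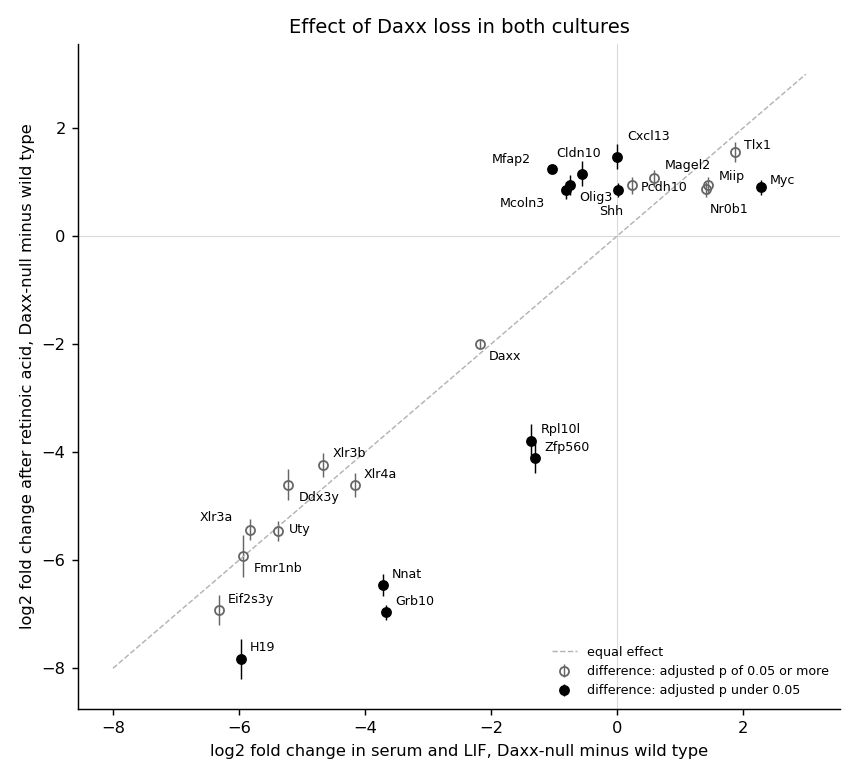
Log2 fold change (Daxx-null minus wild type) after retinoic acid, with the limma standard error as a bar, against that in serum and LIF for Daxx and the 24 genes named by size. Grb10, Nnat, Zfp560 and Rpl10l lie below the dashed line of equal effect, and Mfap2 lies at 1.25 after retinoic acid and -1.03 in serum.

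Repeats differed little. In Daxx-null cells 2 of 865 tested subfamilies rose and 6 fell, or 0.231% and 0.694%, on a scale of FPKM averaged over all copies of a subfamily. LTR40b, an endogenous retrovirus-like repeat of the ERVL family with 574 copies, had 7.17, 6.28 and 6.69 FPKM in Daxx-null libraries, against 3.02, 3.42 and 3.14 FPKM in wild-type libraries (log2 fold change 0.95, SE 0.07, adjusted p = 0.015 by limma). FordPrefect, a DNA transposon with 304 copies, had 63.2, 53.2 and 58.6 FPKM in Daxx-null libraries, against 40.4, 38.7 and 37.4 FPKM in wild-type libraries. Both had Daxx-null libraries above all wild-type libraries, as did 4.62% of subfamilies. The falls were in long terminal repeat elements. ORR1A3-int, of the MaLR family, had 4.39, 4.20 and 3.83 FPKM in Daxx-null libraries, against 7.03, 6.61 and 6.98 FPKM in wild-type libraries. LTRIS2, of ERV1, had 4.29, 4.25 and 4.09 FPKM in Daxx-null libraries, against 6.19, 6.13 and 6.76 FPKM in wild-type libraries. ORR1D-int, RLTR13D4, RLTR10C and RLTR9F fell by 0.37, 0.42, 0.35 and 0.51 on the log2 scale with SEs of 0.04 to 0.07. In 31.4% of all subfamilies the Daxx-null libraries lay below all wild-type libraries, and the median of all was -0.10. Leaving out any library left 0 or 1 subfamily higher and 0 to 3 lower, and 1 and 0 without wild-type replicate 3.

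Families that DAXX and ATRX are known to silence in stem cells were examined by name, after their values had been seen. IAPEz-int, the internal part of intracisternal A particles, had 27.6, 27.8 and 29.4 FPKM in Daxx-null libraries, against 17.0, 16.7 and 23.7 FPKM in wild-type libraries. IAPLTR1_Mm, its long terminal repeat, had 34.3, 35.4 and 39.3 FPKM in Daxx-null libraries, against 22.1, 22.1 and 30.5 FPKM in wild-type libraries. The genotypes did not overlap in either, wild-type replicate 3 lay closest to the Daxx-null libraries, and neither passed the threshold (log2 fold changes 0.57 and 0.55, both SE 0.14, adjusted p = 0.11 for each by limma). The IAP subfamilies together made up 4.72, 4.84 and 5.13% of repeat signal in Daxx-null libraries, against 3.52, 3.43 and 4.17% in wild-type libraries (exact 2-sided permutation p = 0.1, the smallest possible). Of the 16 IAP subfamilies 0 were called, and 12 lay below and 2 above wild type in all libraries, so the sum followed the most abundant ones. MERVL-int, the retrovirus of the 2-cell-like state, had 12, 11.8 and 11.1 FPKM in Daxx-null libraries, against 15.9, 15.6 and 19.7 FPKM in wild-type libraries, and was not called (adjusted p = 0.074). The major satellite GSAT_MM had 10.0, 8.15 and 7.41 FPKM in Daxx-null libraries and 8.80, 8.82 and 8.93 FPKM in wild-type libraries, with overlap. Young L1 elements gave 0 calls among 14 subfamilies, with a median of -0.15.

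Ribosomal RNA had a larger share of repeat signal in Daxx-null libraries, but 0 of its 3 tested subfamilies were called. It made up 7.99, 8.09 and 9.23% of repeat signal in Daxx-null libraries, against 5.25, 5.69 and 5.35% in wild-type libraries. The exact 2-sided permutation test of these shares gave p = 0.1, the smallest possible. The ribosomal RNA precursor gene Rn45s had 3881, 4077 and 4418 FPKM in Daxx-null libraries, against 2295, 3032 and 2430 FPKM in wild-type libraries. The libraries were depleted of ribosomal RNA, and its part in the other repeat values was not tested. Repeat units were 6.97 to 7.41% of gene units in Daxx-null libraries and 7.44 to 7.68% in wild-type libraries. When repeat values were scaled to gene units the median of all subfamilies was -0.16, with 2 subfamilies higher and 8 lower.

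**Figure D5:**
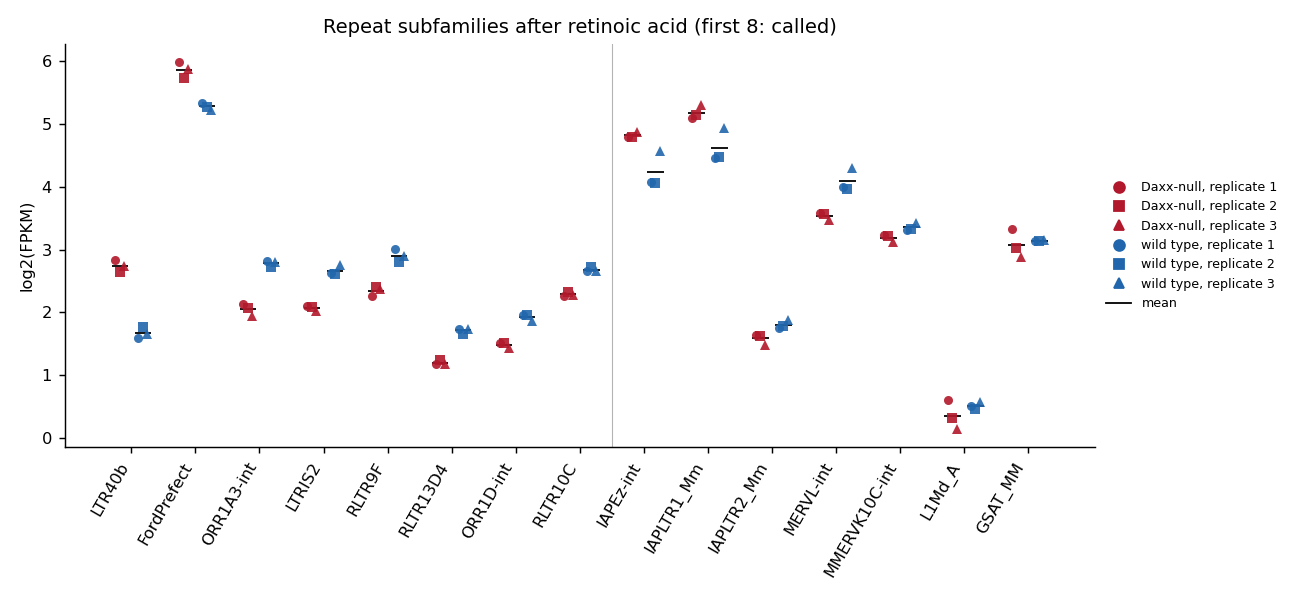
FPKM on a log2 scale of 15 repeat subfamilies, with a point per library and a bar at the group mean. The 8 called subfamilies stand left of the grey line, and IAPEz-int and IAPLTR1_Mm, right of it, show wild-type replicate 3 above the other wild-type libraries.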

How the data were processed

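RNA-seq libraries of Daxx-null and wild-type cells were compared after retinoic acid, 3 against 3, with 6 serum libraries for the test of a difference in effect. The submitters' processing notes list mm9 and the tools HOMER 4.8, Bowtie2 2.2.6 and limma, with no role or settings. The authors deposited FPKM values per RefSeq gene (24505) and per repeat subfamily (906), and a table of log2 values, which matched quantile-normalised FPKM with 1 added, computed here, to within 4.986e-09 for values above its median. Whether counting used strand is not stated, and overlapping genes may share reads. Depth was recovered because low FPKM values were whole multiples of a single unit (tolerance 0.1), and units cover counting error only.

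Genes reaching 1 FPKM in 3 or more of the 6 libraries were tested with limma 3.58.1 (R 4.3.3) with a variance trend on log2(FPKM + 0.5), which understates folds of low genes. Repeats were tested on log2(FPKM + 0.5966), the 5th percentile of values above 0, where above 0 in at least 3 libraries. Python 3.11.15 and scipy 1.17.1 were used for the remaining values. The gene test was tested on simulated data with known changes. Named by size were genes with an adjusted p under 0.05, no overlap of groups and a mean of at least 10 FPKM in the higher genotype, 12 in each direction, without predicted, Riken and small RNA names. From each of 41 gene lists up to 4 called members in each direction at 2 FPKM or more were named, plus further members as examples. Called repeats were all named. Repeat lists with too broad name patterns were replaced by the file's own families after the values had been seen. The comparison and the lists were chosen with earlier results of these data known. Other pseudocounts, filters, scalings, sample sets, a replicate block and each library left out were tried.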

Additional observations from a re-analysis of the deposited data

Results flagged for a closer look

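The effect of Daxx loss differed between retinoic acid and serum, by the limma interaction test over 16913 genes with Benjamini-Hochberg adjustment, for 12 of the 24 genes named by size, against 21.7% of all genes tested. The 24 were chosen for large effects after retinoic acid, which favours such a difference. The values are log2 differences, the effect after retinoic acid minus that in serum. A further fall after retinoic acid was found for H19 (-1.85, adjusted p = 0.034), Grb10 (-3.3, adjusted p = 3.2e-05), Nnat (-2.75, adjusted p = 0.00041), Zfp560 (-2.81, adjusted p = 0.00072) and Rpl10l (-2.43, adjusted p = 0.00074). All of these were called lower in Daxx-null cells after retinoic acid. Myc was raised in both cultures but less after retinoic acid (-1.39, adjusted p = 0.0041).

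The effect was higher after retinoic acid for Mfap2 (2.28, adjusted p = 0.0062), Cldn10 (1.72, adjusted p = 0.0084), Olig3 (1.69, adjusted p = 0.030) and Mcoln3 (1.66, adjusted p = 0.015). Cxcl13 (1.47, adjusted p = 0.0067) and Shh (0.85, adjusted p = 0.030) were at or near 0 in serum in both genotypes, so their serum fold was set by the pseudocount and these values restate the fold after retinoic acid. Cldn10 averaged only 0.14 FPKM in Daxx-null and 0.44 FPKM in wild-type serum libraries.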

How the results depend on the processing

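Of the counts of calls, that of genes higher was 44 with all 18 libraries in one fit, against 94. The count of genes lower was 158 at an FPKM of at least 10, 183 with quantile normalization, 193 with the authors' log2 table and 236 with the replicate number as a block, against 355. For at least 2-fold higher the values were 3 with a pseudocount of 2, 16 with quantile normalization and 12 with the authors' table, against 5, and for at least 2-fold lower they were 82 at an FPKM of at least 10, 121 with quantile normalization and 120 with the authors' table, against 238. With all 18 libraries 1 repeat subfamily was higher, with the replicate block 0 were higher and 0 lower, and with median-ratio scaling 2 were lower, against 2 higher and 6 lower. The difference of the Daxx effect from serum was called for 1504 genes with all 18 libraries, against 3669. The share of rises among called genes was 20.9%, 10.4% with all 18 libraries, 30.4% at an FPKM of at least 10 and 4.55 to 31.7% with 1 library left out. Leaving out 1 library gave 5 to 186 genes higher, 102 to 400 lower, 1 to 37 at least 2-fold higher, 95 to 247 at least 2-fold lower, 0 to 1 repeat subfamilies higher and 0 to 3 lower. The cause was not tested. Over Daxx and the 24 genes named by size under each alternative, 338 values kept the call, 59 missed the threshold and 1 reversed, Ddx3y, at 0.43 with chromosome medians subtracted, which removes the shared shift of 4 Y-linked genes. Replicate numbers did not pair the libraries: the deviations of same-numbered libraries correlated at 0.10, 0.03 and 0.06, and the block gave 80 genes higher and 236 lower.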
